A study of Homo sapiens with 10 samples.

Results

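Solute carriers (SLC proteins) are membrane transporters that move amino acids, sugars, metals, nucleotides and other solutes across the plasma membrane and the membranes of organelles. Most work as facilitators or are driven by gradients of sodium or protons rather than by ATP. Cancer cells are known to draw on carriers of the plasma membrane for nutrients, on lysosomal carriers for amino acids released by degradation, and on mitochondrial carriers for metabolite exchange with the cytosol. The genes described here are those whose symbol in the platform's probe table begins with SLC and a digit, with antisense, divergent and pseudogene rows left out. The rule gave 23 protein-coding genes, each with 1 probe-set row, among 14884 genes with a named row, and 14 non-coding SLC rows were left out. RefSeq lists 386 protein-coding SLC genes, and no row of the probe table used here was named for those outside the 23, which were not analysed here. A further 37519 rows of the array carried no gene name here.

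The measured genes are mostly late additions to the SLC nomenclature, many known until recently as MFSD, PQLC or TMEM genes. They hold no classical glucose transporter, no zinc, iron or copper carrier, and of the mitochondrial SLC25 family the ornithine carriers SLC25A15 and SLC25A2. Of the set, 11 genes belong to the major facilitator superfamily. SLC2A4RG carries the prefix because its product is a transcription factor that binds the gene of a glucose transporter, and it encodes no carrier, which leaves 22 carriers or predicted carriers. The results are grouped by role, a grouping made after the matches had been counted.

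RNA came from 10 clones of PC-3, an established human line from a bone metastasis of prostate cancer. Of these, 5 clones (1, 4, 5, 7 and 13) carried CENPU, a centromere protein gene, in a lentiviral vector, and 5 control clones (1 to 5) carried the same kind of vector empty. All had passed blasticidin selection, each clone is 1 isolate hybridised to 1 Affymetrix array, and the sources used here do not name the promoter driving CENPU. Values are log2 expression as deposited, and differences are CENPU minus control on that scale. CENPU had 9.37, 9.58, 8.70, 9.22 and 9.84 in CENPU clones 1, 4, 5, 7 and 13, against 6.43, 5.78, 6.30, 6.24 and 6.56 in control clones 1 to 5, so no clone went against its label (exact two-sided permutation p = 0.00794, the smallest these groups allow). Of the PC-3 markers, HOXB13 (11.3 in CENPU and 10.9 in control clones) and KRT18 (10.6 and 10.8) were bright. VIM (8.52 and 7.79), EGFR (7.69 and 6.82) and KRT8 (6.73 and 6.76) read lower. The prostate secretory genes KLK3 and KLK2, known to be absent from this line, read 5.57 and 5.59 in CENPU and 5.61 and 5.59 in control clones.

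In CENPU clones SLC66A1 and SLC68A1 fell, 0 of the 23 SLC genes rose, and 21 did not pass (limma, Benjamini-Hochberg adjusted p under 0.05 over all named rows). The called share was 8.70%, against 10.1% of all named genes and 11.7% of named protein-coding genes, so the count lay near the background. By direction, 4.79% of named genes fell and 5.31% rose. Differences were small. The median size was 0.18 over the SLC genes and 0.18 over all named genes, and no SLC gene reached a difference of 1, against 2.41% of all named genes that did. The signed median was -0.10 over the SLC genes and -0.02 over all named genes. Of the SLC genes 17 (73.9%) were negative and 6 positive, against 53.1% of all named genes negative. Over the alternatives given below the negative count ran from 14 to 18. It was 14 after removal of a trend with gene span, and also without control 2, CENPU 7 and CENPU 13. The share of all named genes negative was not computed for the alternatives. For 16 of the 23 the 95% interval of the difference lay within a 1.5-fold change in either direction, and for 21 it lay within 2-fold, shares of 69.6% and 91.3% against 65.2% and 87.7% of all named genes. At an unadjusted p under 0.05 there were 8 SLC genes, against 27.9% of all named genes.

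**Figure D1:**
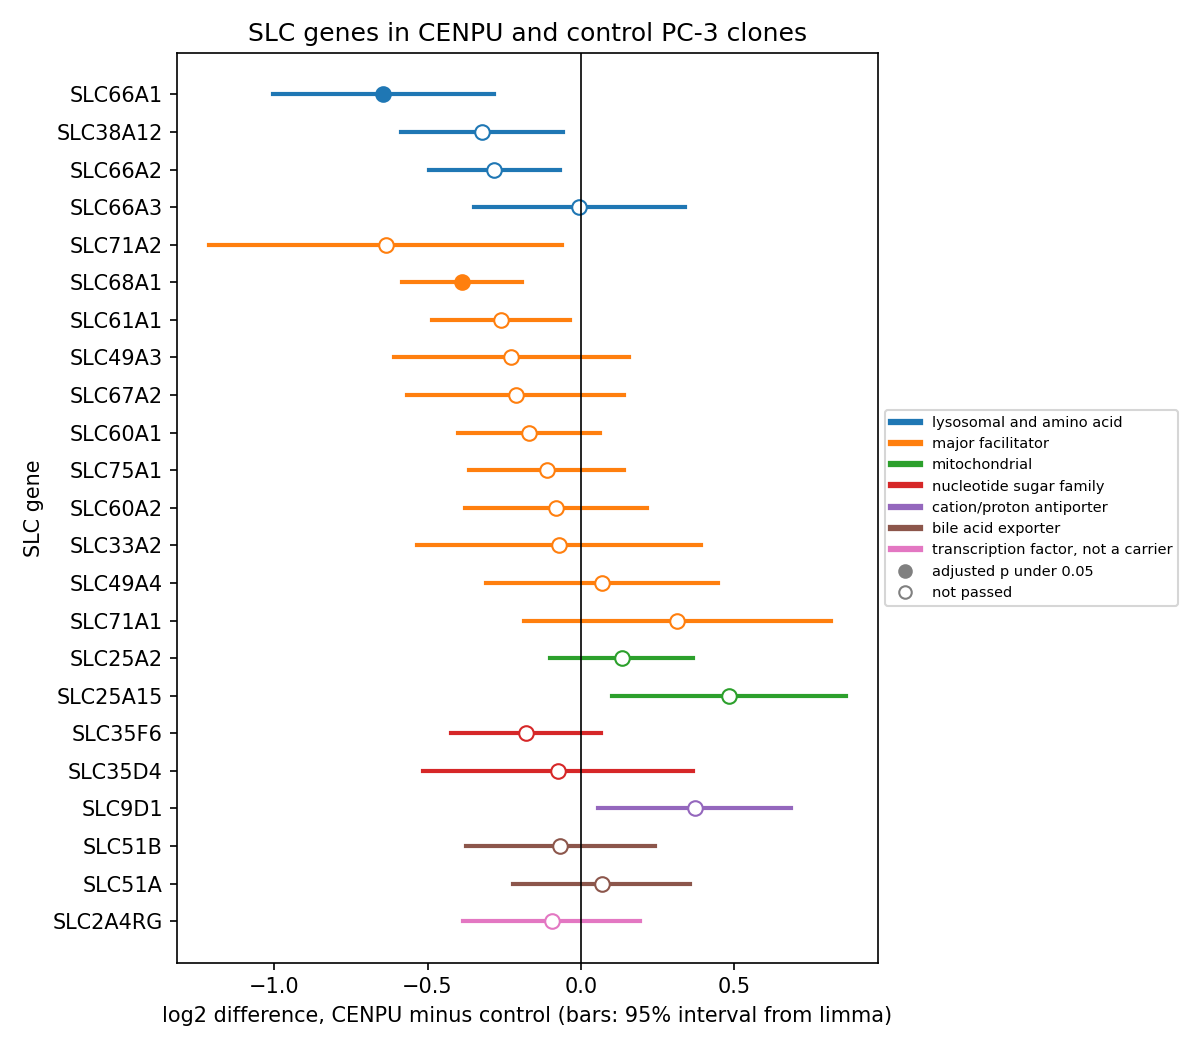
Log2 difference (CENPU minus control, horizontal axis) of each of the 23 SLC genes (vertical axis), coloured by role, with 95% intervals from limma and filled points for the genes that passed. SLC66A1 at -0.64 and SLC68A1 at -0.39 are the filled points, and SLC71A2 at -0.64 has the widest interval.

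**Figure D2:**
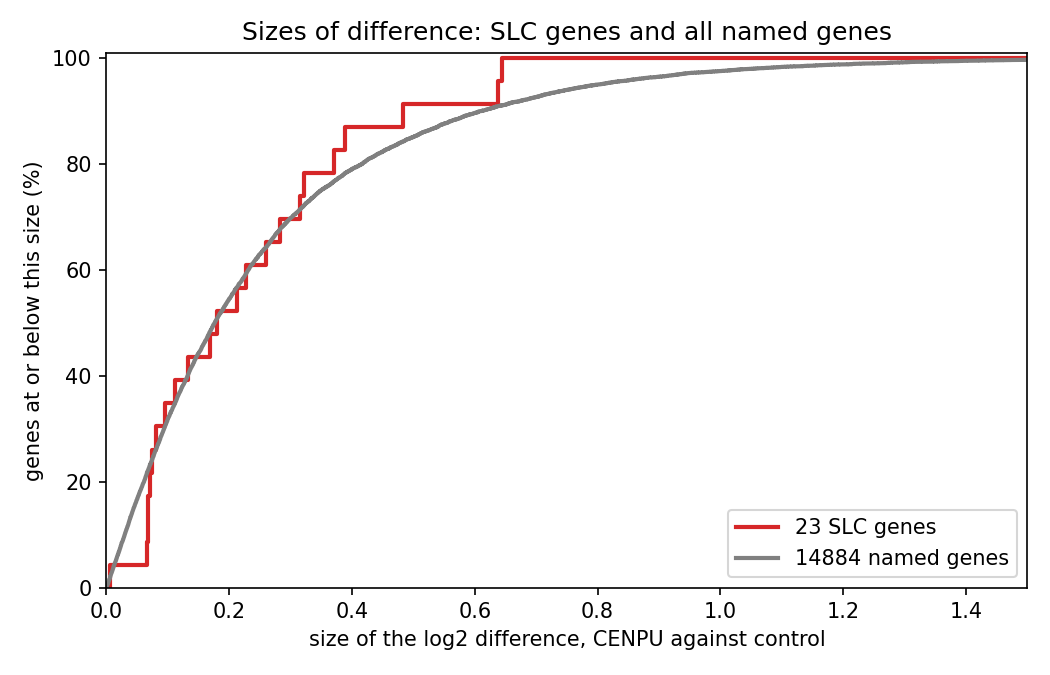
Cumulative share of genes (vertical axis, percent) at or below each size of log2 difference (horizontal axis) for the 23 SLC genes and all 14884 named genes. The curves run close together up to about the median of 0.18, and the SLC curve ends at 0.64.

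The promoters shown are of the genes on which the results turn, namely the pair that passed and the paralogous pair SLC71A1 and SLC71A2 that separated within clones. Each is the 250 bases before the RefSeq transcript start on the gene's strand (GRCh38.p14), in lower case with every GC box in capitals, that is GGGCGG on either strand. SLC66A1 lies at chr1:19312076-19312325, SLC68A1 at chr10:102461145-102461394, SLC71A1 at chr1:100037845-100038094 and SLC71A2 at chr9:94374319-94374568, all on the plus strand.
SLC66A1: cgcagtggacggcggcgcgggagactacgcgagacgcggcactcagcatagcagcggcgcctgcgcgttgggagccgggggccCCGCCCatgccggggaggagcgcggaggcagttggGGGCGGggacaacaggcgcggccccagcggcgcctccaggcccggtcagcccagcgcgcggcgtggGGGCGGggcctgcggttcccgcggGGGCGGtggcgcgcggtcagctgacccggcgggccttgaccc
SLC68A1: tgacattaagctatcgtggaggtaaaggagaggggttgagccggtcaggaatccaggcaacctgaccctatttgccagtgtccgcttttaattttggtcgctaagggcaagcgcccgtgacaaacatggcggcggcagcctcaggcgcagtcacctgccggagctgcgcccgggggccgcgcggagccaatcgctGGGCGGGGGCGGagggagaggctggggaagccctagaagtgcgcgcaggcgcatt
SLC71A1: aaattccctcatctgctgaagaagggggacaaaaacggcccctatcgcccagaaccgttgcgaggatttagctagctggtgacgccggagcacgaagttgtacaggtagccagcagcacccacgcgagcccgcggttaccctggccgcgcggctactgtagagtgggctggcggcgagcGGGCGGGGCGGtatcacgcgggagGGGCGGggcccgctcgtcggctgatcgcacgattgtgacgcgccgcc
SLC71A2: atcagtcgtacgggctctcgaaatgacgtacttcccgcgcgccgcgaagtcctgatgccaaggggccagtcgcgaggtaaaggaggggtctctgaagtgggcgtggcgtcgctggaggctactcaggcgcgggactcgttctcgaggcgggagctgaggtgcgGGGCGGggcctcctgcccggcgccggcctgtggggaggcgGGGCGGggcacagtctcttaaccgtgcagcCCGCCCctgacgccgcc
GC boxes were found at 4 positions before SLC66A1, 2 before SLC68A1, 3 before SLC71A1 and 3 before SLC71A2. Matching members to the RefSeq promoter table gave 18 of 23, of which 15 held a GC box, as did 42.3% of the 27305 promoters searched. The members are all protein-coding, and no share over protein-coding promoters alone was computed. No excess of GC boxes can therefore be read from these counts. The E-box letters CACGTG, the core of the element bound by lysosomal gene regulators, occurred in 1 member, SLC60A2, and in 6.49% of all promoters. None of the promoters printed holds CACGTG, which says only that these letters are not in this window.

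Of 4 genes grouped as lysosomal PQ-loop and amino acid carriers, SLC66A1 fell and the other 3 did not pass, all with negative differences. Of all named genes 10.1% were called and 53.1% were negative. The difference of SLC66A3 was -0.01 and changed sign in 7 of 20 alternatives. SLC49A4, also of the lysosomal membrane but grouped with the major facilitators, was positive at 0.07. SLC66A1 (PQLC2) encodes the exporter of cationic amino acids from the lysosome, which returns lysine and arginine to the cytosol. Its values were 8.02, 7.65, 7.23, 7.82 and 7.55 in CENPU clones 1, 4, 5, 7 and 13, against 8.07, 8.42, 8.73, 8.15 and 8.11 in control clones 1 to 5. CENPU clone 5 was lowest and control clone 3 highest, and the groups did not overlap, with CENPU clone 1 just under control clone 1. The means were 7.65 ± 0.30 and 8.30 ± 0.28 (SD, n = 5 each), a difference of -0.64 with a standard error of 0.17, or 1.56-fold lower (limma adjusted p = 0.0323). The call did not hold without CENPU 5, CENPU 7 or CENPU 13, or without control 2, control 3, control 4 or control 5, each left out alone (adjusted p from 0.0517 to 0.0780, differences from -0.69 to -0.54). In bulk RNA, fewer cells expressing a gene and less of its RNA per cell cannot be told apart.

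SLC66A2 (PQLC1), a PQ-loop paralogue of less known function, had 8.25, 8.17, 7.82, 7.92 and 8.12 in CENPU clones, against 8.26, 8.34, 8.38, 8.36 and 8.36 in control clones. The control values were tight, with SDs of 0.18 in CENPU and 0.05 in control clones, and the groups did not overlap, although CENPU 1 and control 1 differed by less than 0.01. The difference of -0.28 (95% interval -0.50 to -0.07) did not pass (limma adjusted p = 0.0879), and without CENPU 1 it passed at -0.33 (limma adjusted p = 0.0409). CENPU 1 was the highest CENPU clone, so leaving it out was bound to widen the difference, and that pass is no support for it. SLC38A12 (TMEM104), placed by homology in a family of sodium-coupled neutral amino acid carriers, had 10.02, 10.12, 9.89, 9.70 and 9.71 in CENPU clones, against 10.08, 10.44, 10.40, 10.06 and 10.05 in control clones. Its groups overlapped, and the difference of -0.32 did not pass (95% interval -0.59 to -0.06, limma adjusted p = 0.112). The third PQ-loop gene, SLC66A3, averaged 6.15 ± 0.26 in CENPU clones and 6.16 ± 0.28 in control clones (SD, n = 5 each), with an interval from -0.35 to 0.34. The groups did not overlap for SLC66A1, SLC66A2 and SLC68A1, that is 3 of the 23 SLC genes, all lower in CENPU, against 9.73% of all named genes in either direction and 5.19% lower.

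**Figure D3:**
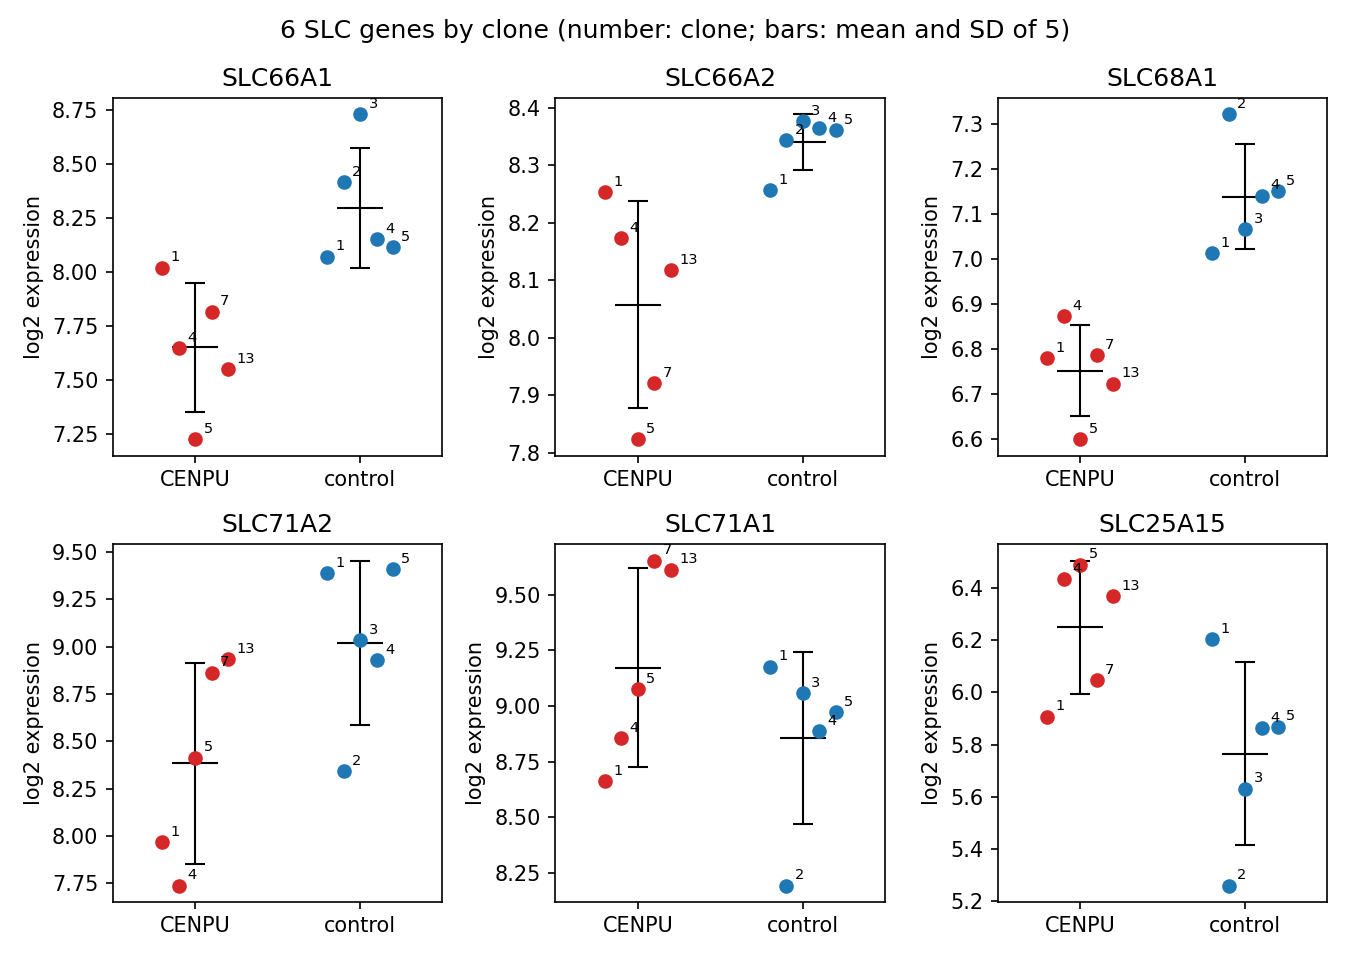
Log2 expression (vertical axis) of 6 SLC genes in each CENPU clone (left, red) and control clone (right, blue), numbered by clone, with the mean and SD of 5 clones. SLC66A1, SLC66A2 and SLC68A1 show no overlap of the groups, whereas SLC71A2, SLC71A1 and SLC25A15 overlap.

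Among 11 major facilitator genes SLC68A1 fell, 0 rose and 10 did not pass, 9 of the 11 having negative differences. The shares were 9.09% called and 81.8% negative, against 10.1% and 53.1% of all named genes. SLC68A1 (MFSD13A, TMEM180), an orphan carrier studied as a surface antigen of colorectal cancer cells, had 6.78, 6.87, 6.60, 6.79 and 6.72 in CENPU clones 1, 4, 5, 7 and 13, against 7.01, 7.32, 7.07, 7.14 and 7.15 in control clones 1 to 5. Every CENPU clone lay under every control clone. The means were 6.75 ± 0.10 and 7.14 ± 0.12 (SD, n = 5 each), and the difference of -0.39, with a standard error of 0.09, amounted to 1.31-fold lower (limma adjusted p = 0.0228). Left out alone, CENPU 5, CENPU 13, control 2, control 4 or control 5 brought the adjusted p to between 0.0501 and 0.0567, with differences from -0.39 to -0.34. Without control 2, CENPU 7 and CENPU 13 together, neither SLC68A1 (-0.34, limma adjusted p = 0.126) nor SLC66A1 (-0.63, limma adjusted p = 0.141) passed.

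The paralogues SLC71A1 (MFSD14A) and SLC71A2 (MFSD14B) encode related major facilitator proteins of intracellular membranes, and loss of the first makes male mice infertile. SLC71A1 had 8.66, 8.85, 9.08, 9.65 and 9.61 in CENPU clones 1, 4, 5, 7 and 13, against 9.18, 8.19, 9.06, 8.89 and 8.97 in control clones 1 to 5. CENPU 7 and CENPU 13 were highest and control 2 lowest, and the groups overlapped (difference 0.31, 95% interval -0.19 to 0.82, limma adjusted p = 0.399).

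SLC71A2 had 7.97, 7.74, 8.41, 8.86 and 8.93 in the same CENPU clones, against 9.39, 8.34, 9.03, 8.93 and 9.41 in the control clones. CENPU 1 and CENPU 4 were lowest, while CENPU 7 and CENPU 13 stood in the range of the controls and control 2 in the range of the CENPU clones. The means were 8.38 ± 0.53 and 9.02 ± 0.43 (SD, n = 5 each), and the difference of -0.64 did not pass (95% interval -1.21 to -0.06, limma adjusted p = 0.143). In the 10 fits that left out 1 clone, SLC71A2 passed in 0 (limma adjusted p from 0.0857 to 0.261). Without control 2, CENPU 7 and CENPU 13 the difference was -1.15 and passed (limma adjusted p = 0.0137). SLC71A1 differed there by -0.16 and did not pass (limma adjusted p = 0.581). The clones left out overlapped the other group in SLC71A2, so its difference was bound to widen. That pass is therefore no support for a difference. RefSeq lists a transcribed pseudogene copy of SLC71A2, SLC71A3P, on the same chromosome, and whether the probes tell them apart was not tested.

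Within each clone the log2 value of SLC71A1 minus that of SLC71A2 was 0.69, 1.12, 0.66, 0.79 and 0.68 in CENPU clones 1, 4, 5, 7 and 13, against -0.21, -0.15, 0.03, -0.04 and -0.44 in control clones 1 to 5. The zero point of such a value has no meaning between different probes, but its shift between groups does not depend on how an array is centred. Every CENPU clone lay above every control clone, with means of 0.79 ± 0.19 and -0.16 ± 0.18 (SD, n = 5 each) and a shift of 0.95. The shift stayed between 0.87 and 1.05 in the 20 alternatives run, but several of these could not move it. They were median centring, the filter on dim rows, the variance model, the fit on all rows and the choices of row. This pair was picked from 9 pairs of the same family after their values were seen, so it is given with no test, and no share was computed over pairs of other genes. In the remaining 8 pairs the groups overlapped, the furthest apart in their means being SLC66A1 minus SLC66A3, with a shift of -0.64.

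**Figure D4:**
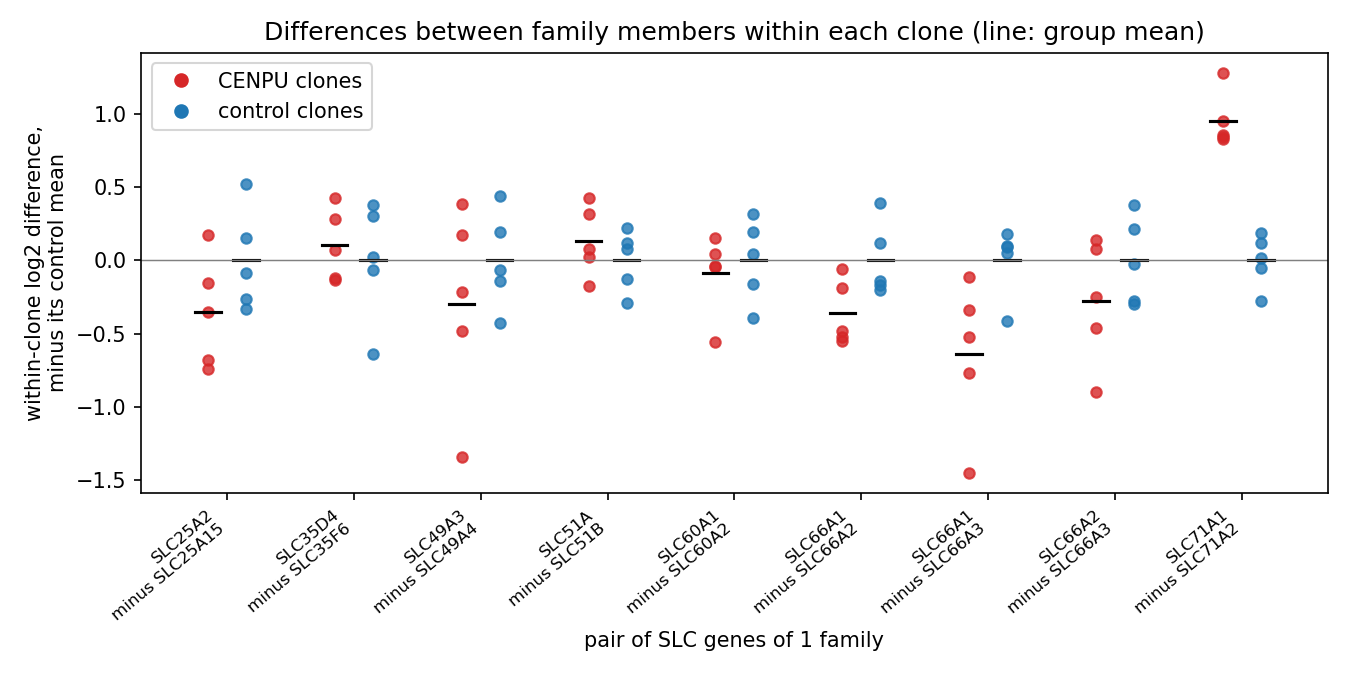
Within-clone log2 difference between SLC genes of 1 family, minus its mean in the controls (vertical axis), for 9 pairs (horizontal axis), with 5 CENPU clones (left of each pair, red) and 5 control clones (right, blue) and group means as lines. SLC71A1 minus SLC71A2 is the pair whose groups do not overlap, with a shift of 0.95.

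SLC61A1 (MFSD5), a molybdate carrier, had 6.73, 6.82, 6.68, 6.54 and 6.58 in CENPU clones, against 6.73, 7.07, 7.06, 6.76 and 7.03 in control clones. The groups overlapped, and the difference of -0.26 did not pass (95% interval -0.48 to -0.04, limma adjusted p = 0.126). SLC49A3 (MFSD7) averaged 6.53 ± 0.42 in CENPU and 6.75 ± 0.11 in control clones (SD, n = 5 each), with CENPU 13 lowest at 5.90 and CENPU 1 highest at 7.04. SLC67A2 (MFSD9) differed by -0.21 and SLC60A1 (MFSD4A) by -0.17. SLC75A1 (MFSD10, TETRAN), a carrier of organic anions, differed by -0.11, with an interval from -0.36 to 0.14 that leaves out a 1.5-fold change. For SLC60A2 (MFSD4B), described in rat kidney as a sodium-dependent glucose carrier, the difference was -0.08 with an interval from -0.38 to 0.22.

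SLC49A4 (DIRC2), a protein of the lysosomal membrane, averaged 9.44 ± 0.30 in CENPU and 9.37 ± 0.30 in control clones (SD, n = 5 each), and its difference of 0.07 did not pass. Its highest value was 9.85 in CENPU 13 and its lowest 8.90 in control 2. SLC33A2 (MFSD3), a relative of the acetyl-CoA carrier of the endoplasmic reticulum, differed by -0.07 with an interval from -0.53 to 0.39. It varied within both groups, from 8.60 to 9.54 in CENPU clones and from 8.47 to 9.43 in control clones.

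Of the mitochondrial carriers neither passed, and both differences were positive. SLC25A15 (ORNT1), the ornithine carrier of the urea cycle whose loss causes a human hyperornithinaemia syndrome, had 5.91, 6.43, 6.49, 6.05 and 6.37 in CENPU clones 1, 4, 5, 7 and 13, against 6.20, 5.26, 5.63, 5.86 and 5.87 in control clones 1 to 5. Control 1 lay within the range of the CENPU clones. The difference of 0.48 (95% interval 0.10 to 0.86) was the highest of the set and did not pass (limma adjusted p = 0.101). Without control 1 it was 0.59 and passed (limma adjusted p = 0.0492). Control 1 was the highest control, so leaving it out was bound to widen the difference, and that pass is no support for it. SLC25A2 (ORNT2), an intronless paralogue of the same carrier, had 5.82, 5.81, 5.54, 5.63 and 5.36 in CENPU clones, against 5.61, 5.52, 5.52, 5.33 and 5.51 in control clones, and its difference of 0.13 did not pass (limma adjusted p = 0.446). These paralogues are close in sequence and SLC25A15 has pseudogene copies, so the signal of either row cannot be assigned to 1 copy with certainty.

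SLC9D1 (TMCO3), related to cation/proton antiporters, had 8.02, 8.10, 8.07, 8.28 and 8.45 in CENPU clones, against 8.26, 7.44, 7.78, 7.75 and 7.83 in control clones. Control 1 overlapped the CENPU clones. The difference of 0.37 did not pass (limma adjusted p = 0.121), and without control 1 it was 0.48 and passed (limma adjusted p = 0.0369). Here too control 1 was the highest control, so the difference was bound to widen and that pass is no support for it. Without control 2, CENPU 7 and CENPU 13 the difference was 0.16 (limma adjusted p = 0.611).

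In the family named for nucleotide sugars, whose known members load the Golgi with building blocks for glycans, SLC35F6 had a difference of -0.18 and SLC35D4 (TMEM241) of -0.07, and neither passed. SLC35F6 averaged 9.50 ± 0.22 in CENPU and 9.68 ± 0.10 in control clones (SD, n = 5 each). SLC35D4, at 199 kb the longest of the genes by genomic span, ranged from 7.82 to 8.42 in CENPU clones and from 7.47 in control 2 to 8.63 in control 1. SLC51A and SLC51B, the subunits of the bile acid and steroid exporter of intestine and liver, read 4.77 ± 0.26 and 4.81 ± 0.24 in CENPU clones, against 4.70 ± 0.16 and 4.87 ± 0.23 in control clones (SD, n = 5 each). Those levels are near the array medians of 4.62 to 4.76 over all rows. Residual background there can make differences too small, which was not tested. SLC2A4RG averaged 9.61 ± 0.25 in CENPU and 9.70 ± 0.18 in control clones (SD, n = 5 each), and its difference of -0.10 did not pass (limma adjusted p = 0.679).

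Clones of the same group varied by about as much as the groups differed. The median SD over the SLC genes was 0.25 in CENPU and 0.23 in control clones, and the SD was larger in CENPU clones for 12 of 23 genes. Control 2 was the highest or lowest control in 13 of 23 genes and the lowest of all 10 clones in 5, SLC71A1, SLC9D1, SLC25A15, SLC35D4 and SLC49A4. Other clones had like counts: CENPU 5 was the highest or lowest CENPU clone in 11 genes and the lowest of all 10 clones in 5, and control 1 was the highest or lowest control in 12. Along the trend of expression with the genomic span of genes, control 2 stood at one end, with a Spearman correlation of -0.355 across 11915 protein-coding genes. CENPU 7 and CENPU 13 stood at the other, with 0.316 and 0.360. The other controls were also negative, from -0.279 to -0.094, whereas CENPU 5 had 0.197, CENPU 4 -0.036 and CENPU 1 -0.160. The trend thus lay partly along the comparison itself, and its source was not tested. After removal of that trend SLC66A1 differed by -0.63 (limma adjusted p = 0.0345) and SLC68A1 by -0.34 (limma adjusted p = 0.0336). SLC71A2 differed there by -0.74 (limma adjusted p = 0.0646).

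**Figure D5:**
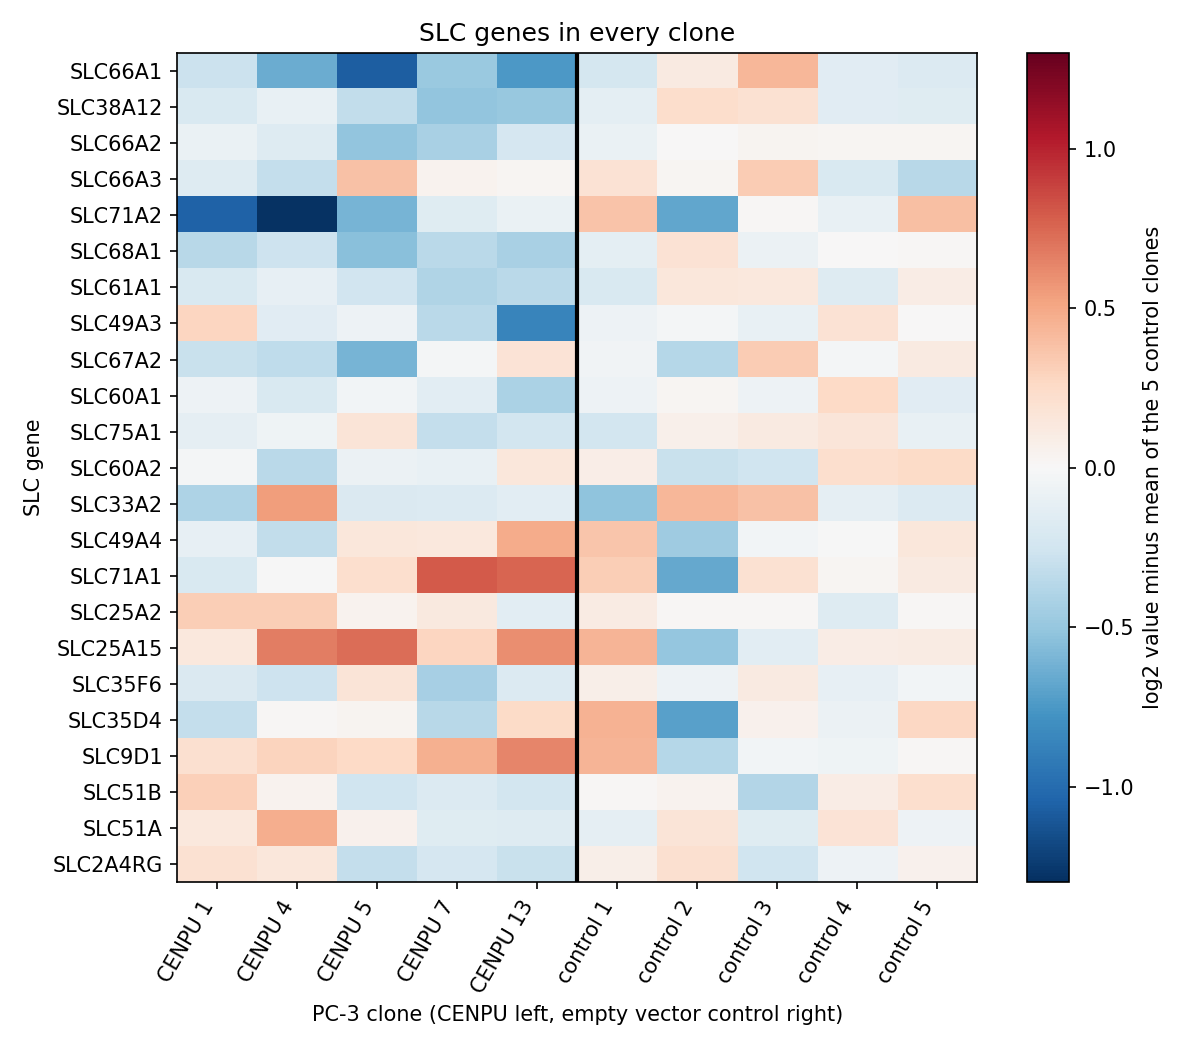
Log2 value of each SLC gene (vertical axis) in each clone (horizontal axis, CENPU left and control right of the line) minus the mean of the 5 control clones, in colour. SLC66A1 and SLC68A1 are blue in all CENPU clones, SLC71A2 is deepest in CENPU 1 and CENPU 4, and control 2 is the lowest control in SLC71A1, SLC71A2 and SLC35D4.

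Genes that work with carriers were read from lists chosen with earlier results of these data known, and are described by counts. Of 28 carriers known by other symbols 13 were measured, XPR1, the phosphate exporter, rose by 0.85 (limma adjusted p = 0.0402), LETM1, a mitochondrial cation exchanger, fell by 0.39 (limma adjusted p = 0.0241), and 11 did not pass, a called share of 15.4% against 10.1% of all named genes. Of the 6 measured genes that keep the MFSD symbol, among them MFSD1 and MFSD2A of the list before, 0 passed in limma, and their median was 0.17. The 1 gene with an unadjusted p under 0.05, as 27.9% of all named genes had, was MFSD2A at -0.60. Of 6 measured pumps and carrier partners 0 passed in limma, 4 having an unadjusted p under 0.05. These were BSG, a chaperone of lactate carriers, at -0.28, EMB at 0.47, and the outer membrane channels VDAC1 and VDAC3 at 0.42 and 0.66.

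Of 13 measured genes of amino acid use 4 rose and 0 fell, with a median of 0.23. The called share was 30.8%, against 10.1% of all named genes called and 5.31% called higher. The 4 genes were ASNS, MTOR, PHGDH and NFE2L2. ASNS is the asparagine synthetase (0.95) and MTOR a kinase that responds to amino acids (0.78). PHGDH is the first enzyme of serine synthesis (0.53) and NFE2L2 a regulator of antioxidant genes (0.96). Of 9 measured genes of glucose use 3 rose and 0 fell (33.3% called), with a median of 0.19, namely the lactate dehydrogenase subunits LDHA (0.58) and LDHB (0.99) and the glycolytic mutase PGAM1 (0.64). The limma adjusted p of these 7 genes ran from 0.00988 to 0.0479. Among the PC-3 markers VIM, EGFR and HOXB13 rose, by 0.74, 0.87 and 0.42, and KRT8 and KRT18 did not pass. Of 10 stromal and blood cell markers 4 were measured, DCN, LUM and LYZ being at or under 3.64 in both groups and PECAM1 at 5.38 in CENPU and 5.11 in control clones, and 0 passed in limma, also at an unadjusted p under 0.05.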

How the data were processed

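Total RNA of 10 PC-3 clones was measured on Affymetrix arrays after biotin labelling, per the labels. The log2 expression values were deposited by the authors for 53617 rows, from 1.65 to 15.0, and were used as they stand. Per the submitters' processing notes Partek and RMA were used, and no version is given. The log2 scale was read from the range of values. Arrays have no depth, so precision rests on the 5 clones per group. Rows were named through a platform table (16098 rows, 1 symbol each), with symbols updated by gene ID to RefSeq (GRCh38.p14), and a gene with several rows was represented by the row of highest mean. The 37519 unnamed rows entered no gene count.

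Groups came from the sample titles. All named rows were fitted with limma 3.58.1 (R 4.3.3), lmFit and eBayes, with Benjamini-Hochberg adjustment over all of them and a threshold of 0.05, and p-values measure the spread between clones. The fit was tested on simulated data with 200 changed rows. The SLC genes, roles, lists and most alternatives were chosen with earlier results of these data known. Every SLC gene is named. Of the other lists, at most 5 genes that passed were to be named by smallest p, and further ones were named after their values were seen. Alternatives covered scaling, dim rows, row choice, variance model, threshold, clone number as a block, removal of the span trend and clones left out. Background correction was not varied, since scanner files are not analysed here.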

Additional observations from a re-analysis of the deposited data

Results flagged for a closer look

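In 48 groups of 5 clones tested (23 SLC genes and CENPU in both groups), 2 held a clone far from the others by Dixon's criterion, and chance alone flags about 1 in 20 such groups. SLC33A2 read 9.54 in CENPU 4, whereas the other 4 CENPU clones lay between 8.60 and 8.86. SLC66A2 read 8.26 in control 1, whereas the other 4 control clones lay between 8.34 and 8.38, a gap of 0.09.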

How the results depend on the processing

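The CENPU difference of 3.08 stayed between 2.81 and 3.24 and passed in each of the 20 alternatives run. Over the 23 SLC genes, 437 of 458 gene-by-alternative results kept their side of the threshold, 16 lost a call and 5 gained one. Most of the 437 are of genes that did not pass. SLC66A1 passed in 11 of 20 alternatives and SLC68A1 in 13 of 20, with 0 sign changes in either. A reversal was counted only where a fit passed, and there were 0. Among genes that did not pass the sign did change, in 7 of 20 alternatives for SLC66A3, 6 for SLC33A2 and 5 for SLC49A4. The count of 2 SLC genes was also 2 after quantile normalization, median centring, the filter on dim rows, the trend and robust fit, the fit on all rows, removal of the span trend and either other choice of row, and without SLC2A4RG (added after the data were examined). No SLC gene had several rows, so the choices of row could not alter any of the differences. They are also among the 458 results. SLC2A4RG had not passed, so its removal could not alter the count. In the settings that kept a count of 2, the share of all named genes called was 7.8% to 16.6%. The count was 0 at a threshold of 0.01, where 1.7% of named genes were called. It was 3 at 0.10 (13.0%, against 17.4% of named genes), and 1 without control 2, CENPU 7 and CENPU 13 (4.35%, against 3.16%). Leaving out each clone gave 0 to 4. The count was 0 without CENPU 5, CENPU 13, control 2, control 4 or control 5, where 4.12% to 5.8% of named genes were called. It was 1 (4.35%) without CENPU 7 or control 3, against 4.62% and 5.51%. Without CENPU 1 it was 3 (13.0%, against 16.6%), and without control 1 it was 4 (17.4%, against 9.55%). The genes gained in the last fits are those whose difference was bound to widen. By role, the fits that left out 1 clone gave 0 to 2 of the lysosomal and amino acid genes and 0 to 1 each of the major facilitator, mitochondrial and cation/proton antiporter genes. The lysosomal and amino acid count was 2 at 0.10, and 0 at 0.01 and without the 3 clones, and the major facilitator count was 0 at 0.01. The cause was not tested. All named genes called ranged from 613 to 2471 over the fits that left out 1 clone.

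The labels do not say that clone numbers mark a shared origin, and deviations of the clones sharing the numbers 1, 4 and 5 correlated at -0.37, 0.10 and 0.02. With clone number as a replicate block, which rests on those 3 pairs, 1 SLC gene passed, SLC71A2 (-1.20, limma adjusted p = 0.0314), with 0 lysosomal and amino acid genes and 55 named genes in all. SLC66A1 differed there by -0.48, SLC68A1 by -0.35 and CENPU by 2.81. The clones outside the pairs, which these differences do not use, include those described above as overlapping the other group in SLC71A2. The SLC71A2 difference was therefore bound to widen in this fit as well, and that pass is no support for a difference. Background signal limits what can be seen in dim rows, and the filter removed SLC51A and SLC51B. It kept SLC25A2 and SLC60A1, at means of 5.56 and 5.60, near KLK3 and KLK2 at 5.59.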
